A study of Sus scrofa with 28 samples.

Results

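The effect of a Western-style diet on the kidney cortex was examined in Göttingen Minipigs, a small breed of laboratory pig. Animals fed a diet rich in fat, fructose and cholesterol (FFC) were compared with animals fed a standard diet (SD). The comparison took the 13 FFC and the 7 SD animals of the 28 in the series, as named by diet in the sample labels, and 73 of the 77 assays of the qPCR table, the other 4 being reference genes. The 8 animals of the FFC-DIA group, which had induced diabetes besides the diet, were not compared here. All 20 animals were adult, castrated males without induced diabetes, approximately 7 months old at the start and sampled after 13 months. Cholesterol made up 2% of the FFC diet for 5 months and 1% from then on. The animals entered the study in 3 staggered cohorts, and the labels do not tie an animal to a cohort. Each sample is 1 animal, and the tissue is whole cortex from the left kidney, with glomeruli, tubules, vessels and interstitial cells together.

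The cortex holds the glomeruli, in which a capillary tuft is wrapped by podocytes whose foot processes are bridged by the slit diaphragm. Podocytes secrete vascular endothelial growth factor (VEGF), on which the fenestrated endothelium of the tuft depends. Long overnutrition is known to enlarge glomeruli, to activate the renin-angiotensin system, and to favour deposition of extracellular matrix, in which transforming growth factor beta (TGF-beta) and its opponents among the bone morphogenetic proteins (BMP) take part. Macrophages and T lymphocytes enter the interstitium in many kidney diseases. The panel was chosen by the study as kidney-related genes, so it is no random draw from the transcriptome.

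The values are quantification cycles (Cq), the PCR cycle at which fluorescence passes a threshold, so that an earlier Cq means more transcript. All 77 assays had a Cq in each of the 20 animals, from 4.65 to 24.6 cycles. A pair of scales is used below, both in log2 units with the mean of the SD animals at 0. On the reference scale each animal's gene Cq was taken from the average of its own ACTB, TBP1 and RPL4 cycles. On the panel scale the mean of the 73 kidney genes in that animal was subtracted as well, so that a gene is set against the rest of the panel. Differences are FFC minus SD with their standard error (SE). Groups were compared by a two-sided exact permutation test over all 77520 splits of the 20 animals, adjusted by Benjamini-Hochberg over the 73 genes at 0.05. Values in a group are given as lowest, median and highest.

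Each gene is read through 1 pair of primers. The primers are shown for the genes on which the comparison turned most and for the reference gene RPL4. The amplified stretches were not placed on a pig sequence here. Primers are written 5′ to 3′ with the last 5 bases, from which the polymerase extends, in capitals.
NPHS1 forward: tggagaacccgactaCCAGT
NPHS1 reverse: gaaaccctccgacacAGGAG
GREM1 forward: cagctgttctccaagaaGCTGA
GREM1 reverse: cccttgggaccccttcTTTTT
VEGFA forward: tcaccaaggccagcaCATAG
VEGFA reverse: caaatgctttctccgCTCCG
CD8A forward: cggcatccttctcctGTCAC
CD8A reverse: gggcatgtcgccatgTTAGA
COL4A2 forward: tcatgggcttttccgGATCG
COL4A2 reverse: tatccgtcagggcctTCGTA
RPL4 forward: caagagtaactacaaCCTTC
RPL4 reverse: gaactctacgatgaaTCTTC
The RPL4 primers have a GC content of 40% each, while the 75 primer pairs read from the study's list span 35% to 65%. COL4A2 is shown because its animals fell into 2 separate groups within each diet.

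On the reference scale most of the panel lay higher in FFC. Of the 73 genes 65 were higher (89.0%) and 8 lower, with a median difference of 0.55, a fold of 1.47. The mean of the 73 genes in an animal was -0.50, 0.04 and 0.53 in SD and -0.13, 0.37 and 1.64 in FFC. The groups overlapped, and the highest panel means were those of FFC animals 9 (1.64), 8 (1.03) and 1 (0.81). The same animals had the latest Cq of RPL4, at 11.6, 10.8 and 10.7 cycles, where SD ranged from 7.04 to 9.31. As RPL4 is among the reference genes, a later RPL4 raises the panel mean by construction. With ACTB and TBP1 as the reference the panel means of these animals were 0.52, 0.23 and 0.05. The delay of RPL4 in FFC was 1.44 ± 0.47 (SE) cycles (p = 0.0139, exact permutation test), whereas ACTB differed by 0.16 ± 0.29 (p = 0.597, exact permutation test) and TBP1 by 0.27 ± 0.36 (p = 0.436, exact permutation test). Set against the mean of ACTB and TBP1 within an animal, RPL4 was 1.22 ± 0.33 (SE) cycles later in FFC (p = 0.00737, exact permutation test). That value overlapped between the diets, from -1.42 to 0.14 in SD and from -1.18 to 2.63 in FFC. The cause of the later RPL4 was not tested, and the next values give the panel difference under other reference genes. The median difference over the panel was 0.14 when RPL4 was dropped from the reference genes, 0.08 with ACTB alone, 0.20 with TBP1 alone and 1.37 with RPL4 alone. With all 4 reference genes it was 0.22, and with GAPDH alone it was -0.77, where SD animal 6 has a GAPDH Cq of 20.6 and no other SD animal is above 9.26. Without FFC animals 1, 8 and 9 it was 0.34. The count of genes higher and lower followed, at 51 and 22 without RPL4, 43 and 30 with ACTB alone, 71 and 2 with RPL4 alone, 5 and 68 with GAPDH alone, and 39 and 34 on the panel scale.

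**Figure D1:**
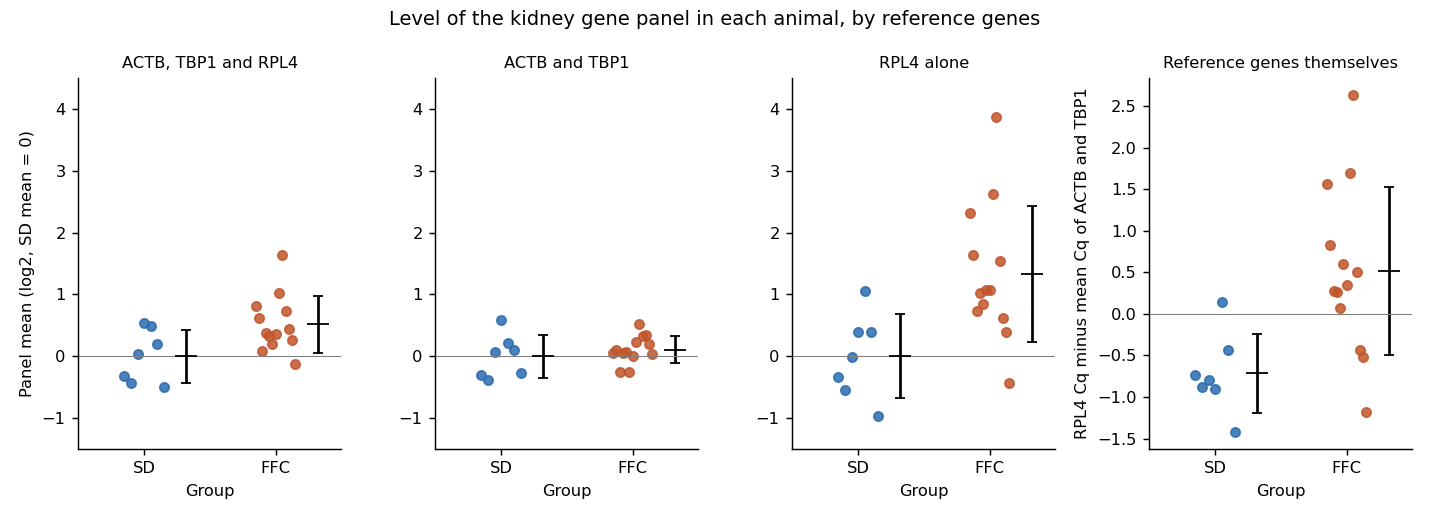
Each point is 1 animal, SD in blue and FFC in orange, and the black bar is the group mean with its standard deviation. The first 3 panels give the mean of the 73 kidney genes (log2, SD mean at 0) with 3 choices of reference genes, and the last gives the Cq of RPL4 minus the mean Cq of ACTB and TBP1 (cycles). The FFC animals reach 1.64 with all 3 reference genes, 0.52 with ACTB and TBP1 and 3.87 with RPL4 alone.

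In the test across all genes 14 of the 73 differed on the reference scale, 13 higher in FFC (17.8% of the panel) and VEGFA lower (1.37%). Before adjustment 25 genes were higher (34.2%) and 2 lower (2.74%) at p under 0.05. On the panel scale no gene was called higher (0%), CD8A was called lower (1.37%), and at an unadjusted p under 0.05 there were 4 genes higher (5.48%) and 7 lower (9.59%). Of the 13 genes called higher, 12 stayed above 0 on the panel scale. The calls depended on the reference genes. With ACTB and TBP1 alone, 0 genes passed and 11 had an unadjusted p under 0.05 in the same exact permutation test. With RPL4 alone 53 passed, all of them higher, and they included the 13 genes called higher here. The differences of the called-higher genes described below were smaller without RPL4, from 0.16 for ACTN4 to 1.32 for GREM1. VEGFA went the other way, at -1.07 without RPL4 (unadjusted p = 0.00404, adjusted p = 0.0909, exact permutation test) and 0.16 when RPL4 was the sole reference (adjusted p = 0.448, exact permutation test). limma called 3 genes on the 20 animals and 9 when all 28 shared 1 estimate of spread. The animals that held 1 and those that held 2 cDNA replicates were unevenly spread over the diets, with 5 of 7 SD and 2 of 13 FFC animals holding 1, and with labels permuted within these strata 0 genes passed and 18 had an unadjusted p under 0.05. Leaving out a lone animal changed the count. The count was 0 without FFC animal 2, 8, 9 or 10 or SD animal 1, 2, 3 or 7, it was 2 without FFC animal 3, 5 or 7, and 3 without FFC animal 1. It was 7 without FFC animal 12, 9 without SD animal 4, 24 without FFC animal 13 and from 10 to 16 without any other animal. Among the 12 called genes described below, each stayed called in 4 to 11 of the 20 omissions, and the largest adjusted p of a gene in them was between 0.0926 and 0.114 (exact permutation test). With GAPDH alone 9 of these 12 changed direction, NPHS1, GREM1 and VEGFA being the exceptions. Without SD animal 6, whose GAPDH Cq was 20.6, GAPDH was 1.02 cycles later in FFC, none of the 12 changed direction, the median over the panel was 0.95, and 0 genes passed with 6 at an unadjusted p under 0.05 (exact permutation test).

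**Figure D2:**
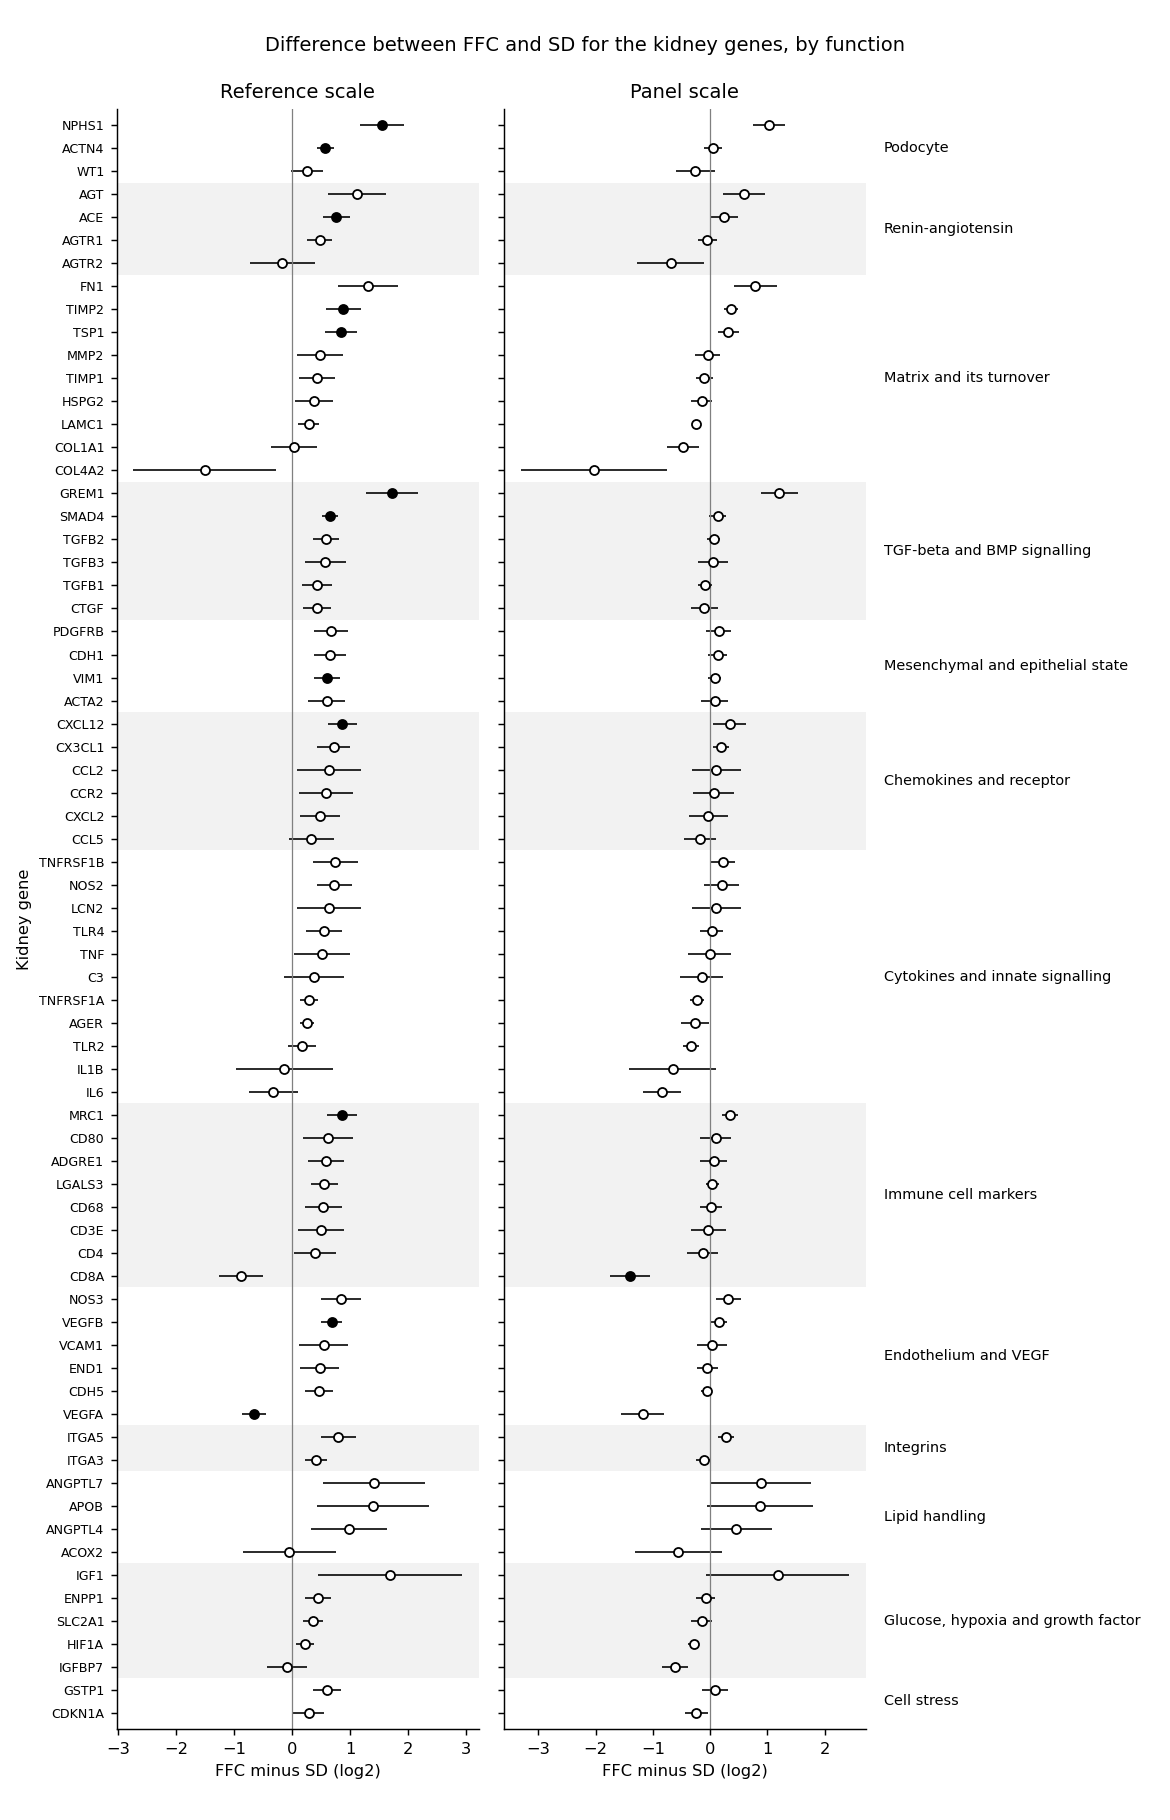
Difference FFC minus SD (log2) with its SE for 70 of the 73 kidney genes, grouped by function, on the reference scale at left and the panel scale at right. Filled points passed the exact permutation test after Benjamini-Hochberg adjustment. Most points lie right of 0 at left (median 0.55) and around 0 at right (median 0.03).

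Among podocyte genes NPHS1 had the highest difference, second to GREM1 among the called genes. In the list of 4, 4 were higher in FFC on the reference scale and 3 were called, where the panel had 89.0% higher and 17.8% called higher, with a median of 0.63 beside 0.55 over the panel, and on the panel scale 3 were higher, 1 lower and 0 called (median 0.11 beside 0.03). NPHS1 encodes nephrin, the cell adhesion molecule that spans the slit diaphragm. It was -0.92, -0.01 and 0.81 in SD and -0.11, 1.71 and 3.41 in FFC. Of the 13 FFC animals 10 lay above every SD animal. NPHS1 was 1.54 ± 0.38 (SE) higher in FFC, a fold of 2.90 (adjusted p = 0.0448, exact permutation test). NPHS1 was not called on the panel scale, at -0.97, 0.27 and 0.49 in SD and -0.48, 1.12 and 2.14 in FFC. The panel-scale difference was 1.02 ± 0.28 (unadjusted p = 0.00512, adjusted p = 0.117, exact permutation test), with 10 FFC animals again above every SD animal. With ACTB and TBP1 it was 1.13. It failed adjustment in 18 of 20 omissions of an animal and passed without FFC animal 11 (1.14) or 13 (1.10), with adjusted p from 0.0283 to 0.249 (exact permutation test) over the omissions and from 0.0388 to 0.374 over the other alternatives. ACTN4, an actin cross-linker of the foot process that other cells express too, spanned -0.16, -0.06 and 0.24 in SD and -0.19, 0.59 and 1.40 in FFC. It was 0.57 ± 0.15 higher on the reference scale (adjusted p = 0.0482, exact permutation test), and 0.05 ± 0.16 on the panel scale. WT1, the transcription factor that marks podocyte nuclei, did not follow NPHS1. It was -1.06, 0.00 and 0.80 in SD and -1.05, 0.39 and 0.78 in FFC, a difference of 0.25 ± 0.27, and -0.26 ± 0.34 on the panel scale. Within the same animal NPHS1 against WT1, a contrast that needs no reference gene and was chosen after the values were seen, was 1.28 ± 0.45 higher in FFC and is given with no test. In bulk cortex a change in the number of cells of a type and a change in RNA per cell cannot be told apart.

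The VEGF ligands VEGFA and VEGFB were called in opposite directions. Of 6 genes, 5 were higher on the reference scale with VEGFB called, near the panel's 89.0% and 17.8%, and VEGFA was called lower, beside 1.37%, with a median of 0.50. Relative to the panel 3 were higher and 3 lower, none called. VEGFA, the main survival factor of glomerular endothelium, was -0.60, 0.02 and 0.54 in SD and -1.60, -0.60 and 0.22 in FFC. Of the 13 FFC animals 7 lay below every SD animal and none above. VEGFA was -0.66 ± 0.20 in FFC relative to SD, a fold of 0.633 (adjusted p = 0.0448, exact permutation test). It was the only gene of the panel called lower on this scale. Set against the panel it was -1.09, 0.07 and 1.04 in SD and -3.24, -0.96 and 0.34 in FFC. The panel-scale difference was -1.18 ± 0.38 (unadjusted p = 0.00802, adjusted p = 0.117, exact permutation test). It failed adjustment in 19 of 20 omissions and passed without FFC animal 13 (-1.30), with adjusted p from 0.0471 to 0.249 (exact permutation test) and from 0.0621 to 0.586 over the other alternatives. With ACTB and TBP1 it was -1.07, and with RPL4 alone it was 0.16. VEGFB, a relative of VEGFA that binds VEGF receptor 1, took the opposite sign. It was -0.47, 0.11 and 0.27 in SD and -0.21, 0.60 and 1.53 in FFC, and 10 FFC animals lay above every SD animal. The difference was 0.68 ± 0.18, a fold of 1.60 (adjusted p = 0.0448, exact permutation test). On the panel scale it was 0.16 ± 0.14, with 1 FFC animal above every SD animal. Within the animal VEGFA against VEGFB was -0.85, 0.06 and 1.00 in SD and -3.13, -1.16 and 0.43 in FFC, with 9 FFC animals below every SD animal. That contrast, also chosen after the values were seen, was -1.34 ± 0.35, a fold of 0.396. The endothelial markers CDH5 (VE-cadherin) and NOS3 (endothelial nitric oxide synthase) differed by 0.46 ± 0.24 and 0.84 ± 0.34 on the reference scale. Against the panel they were -0.06 ± 0.10 and 0.32 ± 0.21. Neither was called. CDH5 ranged from -0.80 to 0.51 in SD and from -0.48 to 1.29 in FFC, and NOS3 from -1.06 to 0.62 and from -0.77 to 1.84. VCAM1, the leukocyte adhesion molecule of activated endothelium, was 0.54 ± 0.42, and END1, assayed under the name of endothelin 1, was 0.47 ± 0.34.

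**Figure D3:**
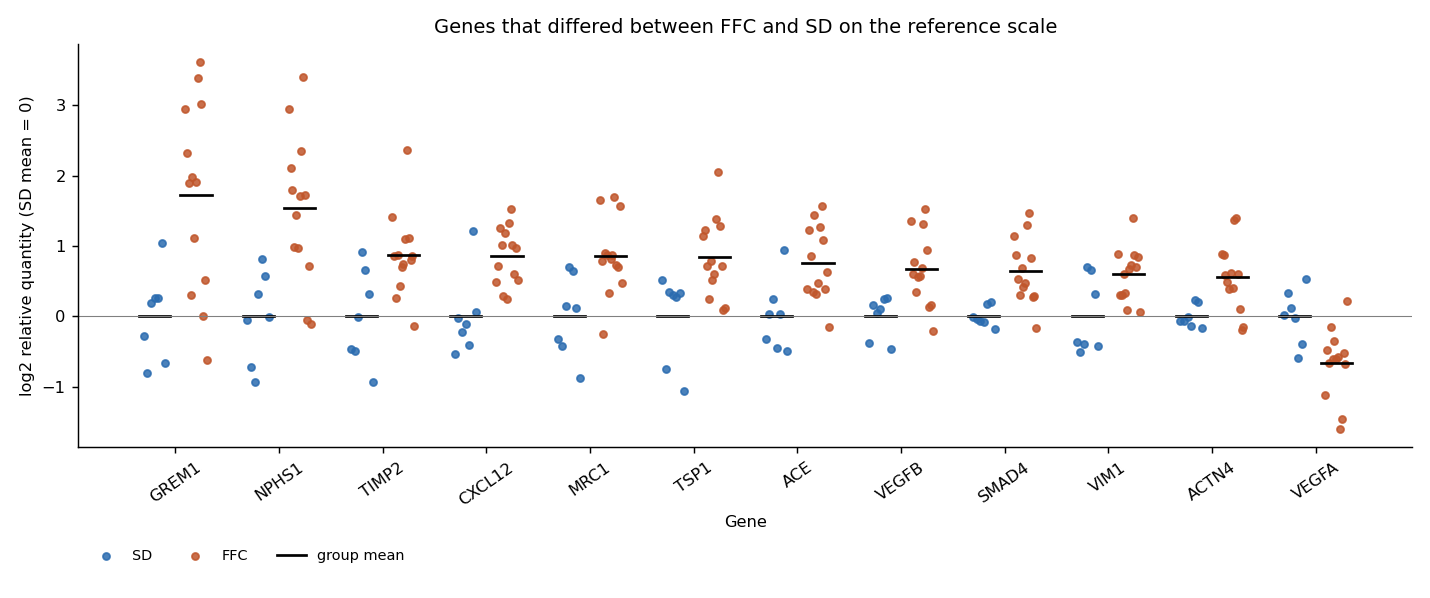
Log2 relative quantity on the reference scale (SD mean at 0) of 12 of the 14 genes that passed the test, ordered by difference, with 1 point per animal and a bar at the group mean. GREM1 and NPHS1 show the highest group means in FFC, and VEGFA is the one gene with an FFC mean below SD.

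Of the genes of the matrix and its turnover TIMP2 and TSP1 were called. Of 10, 9 were higher on the reference scale and 2 called, near the panel's 89.0% and 17.8%, with a median of 0.45. On the panel scale 4 were higher and 6 lower, none called, with a median of -0.07. TIMP2, an inhibitor of matrix metalloproteinases, was -0.94, 0.00 and 0.91 in SD and -0.14, 0.86 and 2.36 in FFC. The groups overlapped, with 4 FFC animals above every SD animal. It was 0.88 ± 0.30 higher in FFC, a fold of 1.84 (adjusted p = 0.0448, exact permutation test). Against the panel TIMP2 was -0.44, -0.04 and 0.38 in SD and -0.01, 0.38 and 0.72 in FFC, a difference of 0.36 ± 0.12 (unadjusted p = 0.00502, adjusted p = 0.117, exact permutation test). That difference failed adjustment in 19 of 20 omissions and passed without FFC animal 13, with adjusted p from 0.0471 to 0.249 (exact permutation test) and from 0.0916 to 0.377 over the other alternatives. MMP2, a gelatinase that TIMP2 can both inhibit and help activate, was 0.48 ± 0.40 on the reference scale and -0.04 ± 0.22 on the panel scale, and TIMP1 was 0.42 ± 0.31 and -0.10 ± 0.15. In contrasts also chosen after the values were seen, TIMP2 against MMP2 within the animal was 0.40 ± 0.14, with 8 FFC animals above every SD animal, and TIMP1 against MMP2 was -0.06 ± 0.16. TSP1, assayed under the name of thrombospondin 1, which releases TGF-beta from its latent complex, was -1.05, 0.30 and 0.52 in SD and 0.09, 0.72 and 2.06 in FFC. It was 0.84 ± 0.28 higher (adjusted p = 0.0448, exact permutation test), with 10 FFC animals above every SD animal, and 0.32 ± 0.19 on the panel scale, where no FFC animal lay above every SD animal.

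FN1, the adhesive glycoprotein fibronectin, had the highest difference of the list. It was -2.13, 0.47 and 1.60 in SD and -0.21, 1.34 and 2.64 in FFC, and the difference of 1.30 ± 0.52 missed the threshold (adjusted p = 0.0586, exact permutation test). Set against the panel, FN1 was 0.79 ± 0.38 (unadjusted p = 0.0385, adjusted p = 0.255, exact permutation test), from -1.63 to 1.08 in SD and from -0.08 to 2.18 in FFC. COL1A1, the fibrillar collagen of scar tissue, did not share this difference, at 0.03 ± 0.39 on the reference scale and -0.48 ± 0.28 on the panel scale. FN1 against COL1A1 within the animal was -0.91, 0.09 and 0.76 in SD and 0.77, 1.26 and 2.00 in FFC. This was the only one of 17 such contrasts in which all 13 FFC animals lay above every SD animal. The contrast was 1.27 ± 0.26, a fold of 2.42, and its 2 genes were picked after their values had been seen. LAMC1, a laminin chain of basement membranes, was 0.28 ± 0.18 on the reference scale but -0.21, -0.03 and 0.30 in SD and -0.49, -0.23 and 0.10 in FFC relative to the panel. The panel-scale difference was -0.24 ± 0.08 (unadjusted p = 0.0110, adjusted p = 0.118, exact permutation test), with 7 FFC animals below every SD animal. It failed adjustment in 20 of 20 omissions and in 14 of 15 other alternatives, with adjusted p from 0.0485, when the panel median was subtracted (exact permutation test), to 0.888 with the replicate block in limma. HSPG2, which encodes the basement membrane proteoglycan perlecan, was 0.37 ± 0.33, from -1.33 to 0.83 in SD and from -0.97 to 1.34 in FFC.

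COL4A2, a chain of the collagen IV network of basement membranes, had the lowest difference of the panel, -1.51 ± 1.23, and was not called. Its animals formed 2 clusters on either side of a gap of 4.42 log2 units. In the upper cluster were 2 of 13 FFC and 2 of 7 SD animals, with means of 4.35 and 3.80, and in the lower cluster 11 FFC and 5 SD animals, with means of -2.58 and -1.52. Both diets were thus present in both clusters, so the difference of means compares mixtures. Of the 13 FFC animals 10 lay below every SD animal on the reference scale, and 8 on the panel scale. The gene had a mean Cq of 14.8, which is not among the late assays.

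The TGF-beta and BMP list had 6 of 6 genes higher on the reference scale, 2 called, beside 89.0% and 17.8% of the panel, with a median of 0.57, and 4 higher and 2 lower on the panel scale (median 0.06). GREM1, which encodes gremlin 1, a secreted antagonist of BMPs, carried the highest difference of the whole panel. It was -0.80, 0.19 and 1.04 in SD and -0.63, 1.91 and 3.61 in FFC, and 9 of 13 FFC animals exceeded the SD maximum. GREM1 was 1.72 ± 0.45 higher, a fold of 3.30 (adjusted p = 0.0448, exact permutation test). Set against the panel it was -0.36, -0.16 and 0.85 in SD and -0.50, 1.66 and 2.36 in FFC, so that 2 FFC animals lay below every SD animal and 9 above. The panel-scale difference was 1.21 ± 0.33 (unadjusted p = 0.0113, adjusted p = 0.118, exact permutation test). The assay was the latest of the panel, with a mean Cq of 19.7, where the noise of PCR is larger. SMAD4, the mediator shared by TGF-beta and BMP receptors, was -0.18, -0.04 and 0.20 in SD and -0.17, 0.53 and 1.46 in FFC. The narrow SD range left 12 of 13 FFC animals above every SD animal, beside 1 on the panel scale. It was 0.65 ± 0.14 higher (adjusted p = 0.0448, exact permutation test), 0.24 with ACTB and TBP1 and 0.13 ± 0.15 on the panel scale. The ligands TGFB1, TGFB2 and TGFB3 differed by 0.42 ± 0.26, 0.58 ± 0.22 and 0.57 ± 0.35 on the reference scale, and by -0.09 ± 0.13, 0.06 ± 0.12 and 0.05 ± 0.27 on the panel scale. CTGF, a matrix protein induced by TGF-beta, was 0.42 ± 0.24 and -0.10 ± 0.24. It was -0.85, 0.01 and 0.51 in SD and -0.42, 0.41 and 1.39 in FFC on the reference scale. GREM1 against TGFB1 within the animal, chosen in the same way as the other contrasts, was 1.30 ± 0.35.

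Genes of the mesenchymal and epithelial state followed the panel closely. All 4 were higher on the reference scale and 1 was called, beside 89.0% and 17.8% of the panel, with differences from 0.59 to 0.67, and between 0.08 and 0.15 on the panel scale. VIM1, assayed under the name of the intermediate filament vimentin, was the called member, at -0.50, -0.36 and 0.70 in SD and 0.06, 0.68 and 1.40 in FFC. It was 0.60 ± 0.23 higher (adjusted p = 0.0482, exact permutation test). ACTA2, smooth muscle actin of vessel walls and myofibroblasts, was 0.59 ± 0.32, and PDGFRB, a receptor of pericytes and mesangial cells, was 0.67 ± 0.29. CDH1, the E-cadherin of tubular epithelium, was 0.65 ± 0.28. Their groups overlapped: ACTA2 ranged from -1.07 to 1.04 in SD and from -0.56 to 1.94 in FFC, PDGFRB from -0.82 to 0.92 and from -0.51 to 1.49, and CDH1 from -0.70 to 0.53 and from -0.83 to 1.69. FFC animals above every SD animal numbered 2 for ACTA2, 4 for PDGFRB and 9 for CDH1, though none of these genes was called.

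In the renin-angiotensin list 4 of 5 genes were higher, beside 89.0% of the panel, and 2 were called, beside 17.8%, with a median of 0.47, below that of the panel, and on the panel scale 2 were higher and 3 lower (median -0.05). ACE, the enzyme that forms angiotensin II, was -0.49, 0.03 and 0.94 in SD and -0.15, 0.63 and 1.56 in FFC. It was 0.76 ± 0.24 higher, a fold of 1.69 (adjusted p = 0.0448, exact permutation test), and 0.24 ± 0.24 on the panel scale. AGT, the precursor angiotensinogen, had the highest difference of the list, 1.11 ± 0.50, from -1.09 to 1.85 in SD and from -1.28 to 2.77 in FFC, and 0.59 ± 0.36 on the panel scale. The receptors AGTR1 and AGTR2 were 0.47 ± 0.21 and -0.17 ± 0.56, the latter a late assay with a mean Cq of 18.1. AGTR2 was -1.72, 0.05 and 1.83 in SD and -2.21, -0.10 and 1.16 in FFC. None of these 3 was called.

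Chemokine genes were higher in 6 of 6 cases on the reference scale, 1 of them called, near the panel's 89.0% and 17.8%, with a median of 0.60, and the median was 0.08 on the panel scale. CXCL12, a stromal chemokine that podocytes and endothelium make, was -0.53, -0.11 and 1.22 in SD and 0.25, 0.97 and 1.52 in FFC. Every FFC animal was above the median of SD, and 3 were above SD animal 6, which held the value of 1.22. CXCL12 was 0.86 ± 0.25 higher (adjusted p = 0.0448, exact permutation test) and 0.34 ± 0.29 on the panel scale. The other members were CX3CL1 (0.71 ± 0.29), CCL2 (0.63 ± 0.55), CCR2 (0.58 ± 0.46), CXCL2 (0.48 ± 0.35) and CCL5 (0.33 ± 0.38), which was -1.25, -0.03 and 1.56 in SD and -0.58, 0.48 and 1.57 in FFC. CCL2, the macrophage attractant, reached 4.54 in 1 FFC animal, where its FFC median was 0.50.

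Cytokines and innate signalling gave no call. Of 11 genes 9 were higher and 2 lower on the reference scale, where the panel had 89.0% higher and 17.8% called higher, with a median of 0.37 beside 0.55 over the panel, and on the panel scale 4 were higher and 7 lower (median -0.15). IL6, a cytokine of the acute phase, was -2.04, 0.24 and 0.91 in SD and -1.33, -0.52 and 0.92 in FFC, a difference of -0.33 ± 0.42. Relative to the panel it was -1.54, 0.23 and 0.86 in SD and -2.36, -0.74 and 0.19 in FFC. That difference of -0.84 ± 0.34 did not pass adjustment (unadjusted p = 0.0135, adjusted p = 0.123, exact permutation test). It failed adjustment in 19 of 20 omissions and passed without SD animal 7 (-1.10), with adjusted p from 0.0175 to 0.299 (exact permutation test) and from 0.0916 to 0.987 over the other alternatives. TLR2, a receptor for bacterial lipoproteins, was 0.17 ± 0.24 on the reference scale, and -0.45, 0.04 and 0.38 in SD and -0.78, -0.36 and 0.15 in FFC relative to the panel. The difference there was -0.34 ± 0.14 (unadjusted p = 0.0212, adjusted p = 0.170, exact permutation test). TNFRSF1B, a TNF receptor of immune cells, was the highest of the list at 0.74 ± 0.39, from -1.44 to 1.19 in SD and from -0.18 to 2.44 in FFC, and TNFRSF1A, the widely expressed TNF receptor, was 0.29 ± 0.16. LCN2, the injury product known as NGAL, was 0.63 ± 0.55, from -1.26 to 1.94 in SD and from -1.06 to 2.71 in FFC. IL1B was -0.14 ± 0.84, from -2.42 to 2.93 in SD and from -2.51 to 4.55 in FFC, with a standard deviation within groups of 1.83. The remaining members ranged from AGER at 0.26 ± 0.12 to NOS2 at 0.72 ± 0.30, with C3 at 0.37 ± 0.52, TNF at 0.51 ± 0.48 and TLR4 at 0.55 ± 0.31 between them.

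Among markers of immune cells 7 of 8 were higher on the reference scale, with 1 called, near the panel's 89.0% and 17.8%, and 1 was lower, with a median of 0.54. The lower one was CD8A, the co-receptor of cytotoxic T cells, which had the smallest p of the panel once set against the other genes. Against the panel mean CD8A was -0.64, -0.29 and 1.32 in SD and -3.33, -1.32 and 0.02 in FFC, and 12 of 13 FFC animals lay below every SD animal. The difference was -1.40 ± 0.35, a fold of 0.378 (adjusted p = 0.0264, exact permutation test). On the reference scale CD8A was -0.96, -0.44 and 1.26 in SD and -1.81, -0.91 and 0.28 in FFC, a difference of -0.89 ± 0.38 (adjusted p = 0.0875, exact permutation test), and with ACTB and TBP1 it was -1.29 (adjusted p = 0.0909, exact permutation test). The other T cell genes were called on neither scale, and their difference from CD8A was not tested. CD3E, a chain of the T cell receptor complex, was 0.49 ± 0.40 on the reference scale and -0.03 ± 0.31 on the panel scale, and CD4, the co-receptor of helper T cells, was 0.39 ± 0.36 and -0.13 ± 0.27. On the reference scale CD3E was -1.14, -0.26 and 1.69 in SD and -0.34, 0.40 and 1.85 in FFC, and CD4 was -1.12, -0.22 and 1.58 and -0.28, 0.38 and 1.72, so the diets overlapped in both. CD8A against CD3E within the animal was -1.02, -0.43 and 2.14 in SD and -2.77, -1.19 and -0.79 in FFC. Of the FFC animals 11 lay below every SD animal, and the contrast, chosen after the values were seen, was -1.37 ± 0.44. CD8A is a late assay with a mean Cq of 18.1. Its panel-scale call was lost without SD animal 1 (-1.18, adjusted p = 0.0928, exact permutation test), SD animal 4 (-1.28, adjusted p = 0.0525, exact permutation test) or SD animal 5 (-1.43, adjusted p = 0.0511, exact permutation test). It was also lost without FFC animals 1, 8 and 9 (-1.30, adjusted p = 0.0676, exact permutation test) or when FFC animal 11 and SD animal 1 were omitted (-1.20, adjusted p = 0.0931, exact permutation test). Permuting within the series of animal numbers gave -1.42 (adjusted p = 0.0621, exact permutation test), and permuting within strata of 1 or 2 cDNA replicates gave -0.95 (adjusted p = 0.297, exact permutation test). Both stratified tests allow fewer splits than the main test.

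MRC1, the mannose receptor of tissue macrophages, was the called immune gene on the reference scale. It was -0.87, 0.12 and 0.70 in SD and -0.25, 0.81 and 1.69 in FFC, exceeding the SD maximum in 9 FFC animals, and 0.86 ± 0.26 higher (adjusted p = 0.0448, exact permutation test). Against the panel it was 0.34 ± 0.14, with 7 FFC animals above every SD animal. The broader macrophage markers CD68 and ADGRE1 were 0.53 ± 0.32 and 0.58 ± 0.31 on the reference scale, and 0.01 ± 0.19 and 0.06 ± 0.23 on the panel scale. CD68 ranged from -0.90 to 1.38 in SD and from -0.10 to 1.91 in FFC, and ADGRE1 from -1.03 to 0.66 and from -0.38 to 1.73. MRC1 against CD68 within the animal, again a contrast chosen after the values were seen, was 0.33 ± 0.16. LGALS3, a galectin of macrophages and injured epithelium, was 0.55 ± 0.23, and CD80, a co-stimulatory molecule, 0.62 ± 0.43.

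**Figure D4:**
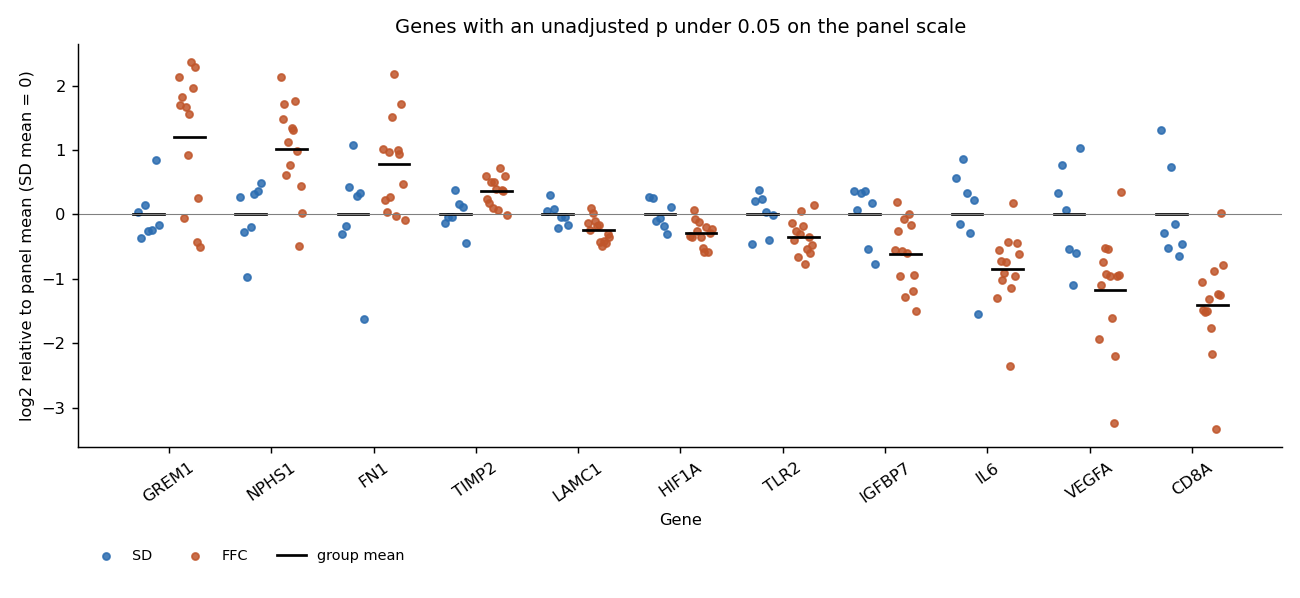
Log2 value relative to the animal's own panel mean (SD mean at 0) of the 11 genes with an unadjusted p under 0.05 on this scale, with 1 point per animal and a bar at the group mean. GREM1 and NPHS1 have FFC means of 1.21 and 1.02, VEGFA and CD8A of -1.18 and -1.40, and CD8A alone passed adjustment.

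Metabolic genes had wide spreads and no call. In the lipid list 3 of 4 genes were higher and 0 called, beside 89.0% and 17.8% of the panel, and its median of 1.18 on the reference scale and 0.67 on the panel scale was the highest of the 13 lists. ANGPTL7 was 1.40 ± 0.88, from -3.11 to 2.42 in SD and from -0.40 to 2.82 in FFC, in an assay with a mean Cq of 19.5. APOB, the structural protein of lipoproteins, was 1.39 ± 0.97, from -3.11 to 3.23 in SD and from -3.02 to 3.97 in FFC, and ANGPTL4, an inhibitor of lipoprotein lipase, was 0.98 ± 0.65. ACOX2, a peroxisomal oxidase of branched fatty acids and bile acid intermediates, was -0.05 ± 0.80, from -2.05 to 2.76 in SD and from -1.22 to 3.08 in FFC, with a mean Cq of 18.4. The standard deviations within groups were 2.11 for APOB and 1.57 for ACOX2, wider than the differences.

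In the list of glucose, hypoxia and growth factor genes 4 of 5 were higher and 0 called on the reference scale, beside 89.0% and 17.8% of the panel (median 0.36), and 1 of 5 on the panel scale (median -0.15). HIF1A, the oxygen-regulated subunit of hypoxia-inducible factor, was 0.22 ± 0.15 on the reference scale, and -0.31, -0.05 and 0.27 in SD and -0.58, -0.28 and 0.06 in FFC relative to the panel. That difference was -0.29 ± 0.10 (unadjusted p = 0.00672, adjusted p = 0.117, exact permutation test), with 6 FFC animals below every SD animal. VEGFA and SLC2A1 are known targets of hypoxia-inducible factor, and SLC2A1, the glucose transporter GLUT1, was 0.36 ± 0.17 and -0.15 ± 0.18. IGFBP7, a secreted binding protein of insulin-like growth factors, was -0.09 ± 0.35 on the reference scale, and -0.77, 0.18 and 0.37 in SD and -1.49, -0.57 and 0.19 in FFC relative to the panel. The difference there was -0.61 ± 0.23 (unadjusted p = 0.0232, adjusted p = 0.170, exact permutation test). IGF1, the growth factor itself, had the widest spread of the panel, a standard deviation within groups of 2.71. Its animals formed 2 clusters with a gap of 3.38 log2 units, 10 FFC and 4 SD animals in the upper one and 3 of each diet in the lower one. The upper clusters had means of 3.13 in FFC and 1.98 in SD, the lower ones -3.10 and -2.64, and the difference over all animals was 1.69 ± 1.24. ENPP1, an ectonucleotidase, was 0.44 ± 0.23.

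**Figure D5:**
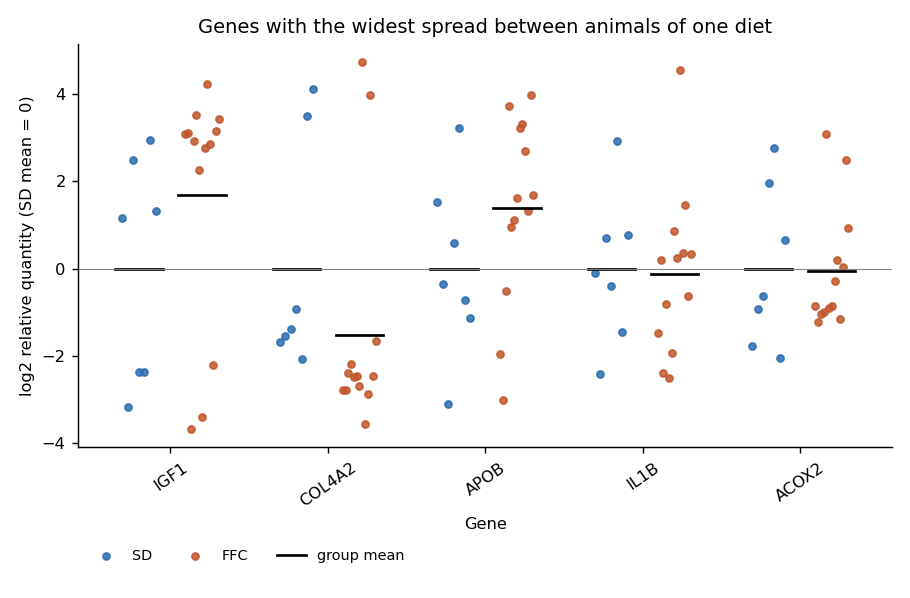
Log2 relative quantity on the reference scale (SD mean at 0) of the 5 genes with the largest standard deviation within diet groups, 1 point per animal and a bar at the group mean. IGF1 and COL4A2 split into upper and lower animals in both diets, and no gene of the 5 was called.

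The integrins ITGA5, a fibronectin receptor subunit, and ITGA3, a laminin receptor subunit of podocytes, were 0.79 ± 0.30 and 0.41 ± 0.19 on the reference scale, and 0.27 ± 0.14 and -0.11 ± 0.13 on the panel scale. ITGA5 ranged from -0.89 to 0.82 in SD and from -0.32 to 2.23 in FFC, and ITGA3 from -0.48 to 0.52 and from -0.59 to 1.31. In the list of cell stress genes GSTP1, a glutathione transferase, was 0.60 ± 0.24, and CDKN1A, the cell cycle inhibitor p21, was 0.28 ± 0.27. GSTP1 ranged from -0.82 to 0.69 in SD and from -0.80 to 1.13 in FFC, and CDKN1A from -0.73 to 0.75 and from -0.73 to 1.63. None of these 4 genes was called, and the medians of their lists were 0.60 and 0.44.

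The genes are grouped next by mean Cq, as a description with no test. Cq of different primer pairs does not rank transcripts by abundance, since PCR efficiencies were not applied. The 17 genes with a mean Cq under 10 were all higher in FFC on the reference scale, with a median of 0.59, a median standard deviation within groups of 0.46 and 8 calls. Of the 39 genes from 10 to 15 cycles 37 were higher, with a median of 0.55, a standard deviation of 0.67 and 4 calls. Of the 17 genes at 15 cycles or later 11 were higher, with a median of 0.39, a standard deviation of 0.93 and 2 calls. Without RPL4 the genes higher were 13 of 17, 30 of 39 and 8 of 17 in that order, with medians of 0.18, 0.14 and -0.02 and 0 calls, and on the panel scale they were 10, 22 and 7, with 0, 0 and 1 calls. Of the 14 reference-scale calls 8 lay among the earliest assays, whose median spread within groups was the narrowest.

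FFC animals differed from each other in how much of the panel left the SD range. The number of genes above every SD animal on the reference scale was 6, 17 and 57 in FFC. FFC animal 9 held the 57, FFC animals 8 and 1 had 37 and 34, and FFC animals 13 and 11 had 6 and 7. Between 0 and 5 genes of an FFC animal lay below every SD animal. On the panel scale the counts above were 4, 9 and 21, the highest in FFC animal 3, and those below were 4, 8 and 15. Their means, 9.08 above and 8.62 below, were close to each other. Since only 7 SD animals bound the range, some genes of any further animal fall outside it without a diet difference. FFC animal 9, first on the reference scale, had 11 above and 14 below on the panel scale, beside an RPL4 Cq that was 2.63 cycles later than the mean of ACTB and TBP1.

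Each of the 11 genes with an unadjusted p under 0.05 on the panel scale kept its direction within each series of animal numbers that held both diets and within each number of cDNA replicates. These genes were picked for their difference in the same animals, so that count is a description and no independent support. Of the 11, values are given for CD8A, VEGFA, NPHS1, GREM1 and FN1, chosen after they were seen. IL6 shrank most, to -0.11 among animals with 1 cDNA replicate beside -1.01 with 2. Animals numbered in the 319 series, 6 FFC and 4 SD, gave -1.16 for CD8A, -1.11 for VEGFA, 0.90 for NPHS1, 0.77 for GREM1 and 0.96 for FN1. Those of the 320 series, 5 FFC and 3 SD, gave -1.75, -1.05, 0.82, 1.43 and 0.60 in that order. The 221 series held 2 FFC animals and no SD animal. The labels do not say what the series of the number stands for. Among the 7 animals with 1 cDNA replicate the 5 differences were -0.79, -1.53, 0.73, 1.37 and 0.73, and among the 13 with 2 they were -1.08, -1.20, 1.03, 0.95 and 0.73. The median reference-scale difference over the panel was 0.52 and 0.45 in the 319 and 320 series, and 0.42 and 0.61 with 1 and 2 cDNA replicates. The p-values given here measure the spread between animals.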

How the data were processed

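Cortex tissue (60 mg) was homogenised and 500 ng of RNA reverse-transcribed by the authors, with 2 cDNA replicates, pre-amplification and EvaGreen qPCR on a microfluidic chip. The authors deposited quantification cycles (Cq), the mean over the cDNA replicates of an animal, not normalised, and these other values (cycles, not counts) were used here. A deposited table of fold changes was not used. PCR efficiencies were not applied, so a doubling per cycle is assumed. qPCR has no read depth, and the number of animals and the Cq set the precision.

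Values, tests and thresholds are given in the report and were computed with Python 3.11.15, numpy 2.4.6 and limma 3.58.1 in R 4.3.3. All genes entered, 6 of them late (mean Cq above 18), and no p was computed for a list. SE allows unequal variances. The test was tried on simulated tables. Values or ranges by group are given for genes past adjustment on the reference scale or with an unadjusted p under 0.05 on the panel scale, for cell type markers, for the highest and lowest of each functional list and for the 5 widest genes. The 13 lists follow textbook roles. The members and lists were chosen with earlier results of these data known. Primer sequences came from the study's supplement, as did animal numbers and cDNA replicate names, in which HFD was read as FFC. Of the 77 assay names 72 are symbols in the pig RefSeq table; END1, GSTP1, TSP1, VIM1 and TBP1 are printed as deposited, without coordinates. 3 genes are not reported here, although the tests and counts include them. No columns of animals were identical (the closest pair differed by up to 2.37 cycles). Alternatives were other reference genes, tests, adjustments, centrings, strata, a replicate block, late assays left out and each animal left out. Omission of FFC animals 1, 8 and 9, of FFC animal 11 with SD animal 1 and of SD animal 6 with GAPDH alone was chosen after seeing the data.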

Additional observations from a re-analysis of the deposited data

Results flagged for a closer look

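In the SD group, 57 sets of 7 values (those of the genes chosen for description, on either scale, and of the 4 reference genes) were searched for an animal far from the others, and 4 were found, where chance at about 1 in 20 gives about 3. The GAPDH Cq of SD animal 6 was 20.6, and the next highest SD value was 9.26. The TBP1 Cq of SD animal 1 was 13.2, with the next at 11.6. CXCL12 on the reference scale was 1.22 in SD animal 6, with the next at 0.07, and GREM1 on the panel scale was 0.85 in SD animal 6, with the next at 0.14. Groups of 13 were not searched.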

How the results depend on the processing

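The count of 14 genes on the reference scale was 8 with rank sums, 3 with limma on 20 animals, 9 with limma on 28, 1 with Bonferroni and 1 with linear quantities. It was 0 with ACTB, TBP1 or GAPDH alone, with all 4 reference genes, with ACTB and TBP1, and under strata of cDNA replicates, and 53 with RPL4 alone. It ran from 0 to 24 when an animal was left out, was 0 without FFC animals 1, 8 and 9 and 1 without FFC animal 11 and SD animal 1. The panel-scale count of 1 was 0 with a t distribution in place of the permutations, with either stratification, with late assays left out (CD8A is one) and without either set of animals, 2 with the panel median and 0 to 4 when an animal was left out. With the replicate number as a block, limma called 0 genes on the reference scale (18 at an unadjusted p under 0.05) and 3 on the panel scale, CD8A, GREM1 and NPHS1. The labels do not say whether equal numbers pair the animals. Deviations of the 7 pairs of equal number correlated between -0.34 and 0.11, and no SD animal correlated best with its own number. A weak effect shared by a number could escape these correlations. The median of 0.55 was 0.08 with ACTB alone, 1.37 with RPL4 alone, -0.77 with GAPDH alone (0.95 with GAPDH alone when SD animal 6 was left out too) and 0.42 to 0.65 when an animal was left out.

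With GAPDH alone the differences reversed to -0.57 for ACE, -0.76 for ACTN4, -0.47 for CXCL12, -0.47 for MRC1, -0.68 for SMAD4, -0.45 for TIMP2, -0.49 for TSP1, -0.65 for VEGFB and -0.72 for VIM1. These reversals rest on the GAPDH Cq of 20.6 in SD animal 6. Without that animal GAPDH alone gave 0.97 to 2.27 for the called-higher genes described and -0.35 for VEGFA, and 0 genes passed. VEGFA was 0.16 with RPL4 alone. None of the 11 genes with an unadjusted p under 0.05 on the panel scale reversed under the alternatives run. The cause of the other changes was not tested.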
